A study of Mus musculus with 36 samples.

Results

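Monocytes leave the blood and enter injured tissue along gradients of chemokines, small secreted proteins that bind G-protein-coupled receptors on the moving cell. The genes described here are 6 chemokines (Ccl2, Ccl3, Ccl4, Ccl5, Ccl6 and Cxcl10) and 3 receptors (Ccr2, Cx3cr1 and Cxcr4), 9 of the 23152 genes measured in mouse liver. They were chosen by symbol: every probe set of the array annotated to that symbol alone was kept, which gave 43 probe sets, and averaging these signals gave 1 value per gene. In the liver, Kupffer cells, stellate cells, endothelium and hepatocytes can all secrete chemokines after damage, and monocytes that carry Ccr2 arrive and turn into macrophages that can feed or resolve scarring. Cx3cr1 marks patrolling monocytes and their descendants, and Cxcr4, the receptor of Cxcl12, is found on most leukocytes.

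Whole-liver RNA of female C57BL/6 mice aged 10 to 12 weeks was read on 36 whole-transcript arrays, 1 array per library. The animals either lacked dermatopontin (Dpt-null, here KO), a small extracellular matrix protein, or were their wild-type (WT) littermates. Carbon tetrachloride (CCl4, a solvent that hepatocytes convert to a toxic radical, not to be read as the chemokine gene Ccl4) was given under the skin 3 times a week for 8 weeks at 0.1 ml/kg, as a solution that held 2% in week 1, 4% in week 2, 5% in week 3, 6% in week 4 and 8% in weeks 5 to 8, and livers were taken 24 hours after the last dose. Control animals received olive oil. The groups were 8 WT oil, 10 KO oil, 9 WT CCl4 and 9 KO CCl4 libraries; the null allele is described no further in the labels, and no Cre or transgene is named.

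Some libraries stand apart. Dpt read 7.40 in the library labelled KO oil 10, where the median of its group was 3.60, and 3.18 in the library labelled WT CCl4 1, where the median was 8.31, so both went against their labels. KO oil 10 was also unlike its group in injury markers. Its mean of stellate cell and myofibroblast markers was 8.26 (group median 5.98, WT CCl4 highest 8.16). Its mean of monocyte and macrophage markers was 7.28 (group median 5.18, WT CCl4 highest 7.17). Its oil label is thus in doubt too, and which label is wrong was not tested. In 6 oil libraries (3 WT and 3 KO) the Y-linked genes were expressed although every animal is labelled female. In CCl4 libraries the Y-linked mean was at most 2.72 in WT and 2.80 in KO. This trait is thus unbalanced between oil and CCl4 in both genotypes. Markers of pancreas, skeletal muscle or fat stood out in 7 libraries, 5 of them WT CCl4. Albumin (Alb), the defining hepatocyte transcript, lay between 12.28 and 12.54 in all oil libraries and was lowest in WT CCl4 3 (11.54) and KO CCl4 5 (11.37), the same 2 libraries in which periportal hepatocyte genes were low. A fit without 10 libraries (against their label, with Y-linked genes or with low periportal genes) was also made, and some of its values for the members and lists follow those of all libraries. That fit kept WT CCl4 4, 5, 8 and 9, which hold markers of other tissues, and no fit left out both kinds of library.

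After CCl4, transcripts of this group were higher in both genotypes. Of the 9 genes, 6 rose in WT livers, where 24.5% of all genes were called and 13.2% rose (3048 up and 2618 down). In KO livers 9 of 9 rose, where 23.3% of all genes were called and 13.4% rose (3100 up and 2289 down). When every array was centred on its median instead, the calls split 2358 up to 5380 down in WT and 2505 up to 4710 down in KO, with 6 and 8 of the 9 genes still up. The median change of the 9 genes was 1.22 on the log2 scale in WT and 1.37 in KO, where the medians over all genes were -0.043 and -0.04. Called means a Benjamini-Hochberg adjusted p under 0.05 over all 23152 genes in limma, and errors of log2 changes are standard errors. Levels are log2 signals, which may be compared between libraries for a gene but not between genes. In whole-liver RNA, more cells of a type and more RNA per cell cannot be told apart.

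**Figure D1:**
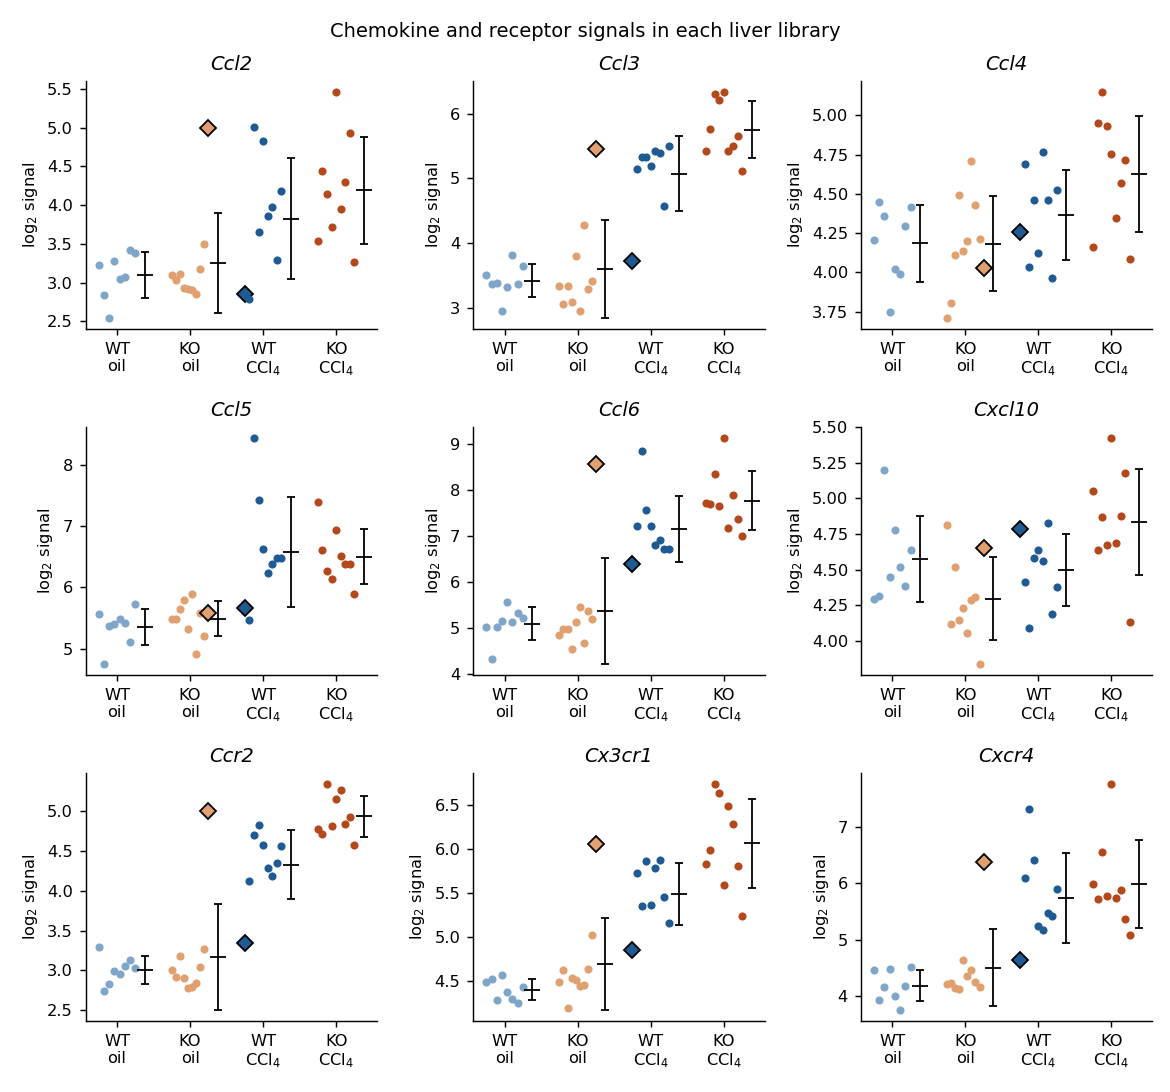
Log2 signal of each gene (vertical axis) in every library, by group (horizontal axis: WT or KO, oil or CCl4). Circles are libraries, diamonds are the libraries labelled KO oil 10 and WT CCl4 1, whose Dpt signal goes against the label, and the bar beside each group is the mean with SD (n = 8, 10, 9 and 9). For Ccr2 all 9 KO CCl4 libraries lie at or above 4.57, and all KO oil libraries except the diamond lie at or below 3.27.

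Ccl2, also called MCP-1, is the main ligand of Ccr2 and draws classical monocytes. Its signal ranged from 2.54 to 3.42 (median 3.15) in WT oil, from 2.86 to 5.00 (median 3.07) in KO oil, from 2.79 to 5.01 (median 3.86) in WT CCl4 and from 3.27 to 5.45 (median 4.14) in KO CCl4 livers. The 4 ranges overlap: 6 of the 9 WT CCl4 libraries lay above every WT oil library, while WT CCl4 1, 2 and 8 stayed within the oil range. Ccl2 rose by 0.94 ± 0.28 in KO livers (adjusted p = 0.0124, a fold of 1.92). In WT livers the change of 0.72 ± 0.30 missed the threshold (adjusted p = 0.0693). It passed in 4 of the 36 fits that each left out a library. There the adjusted p was 0.0366 without KO oil 10, 0.0308 without WT CCl4 1, 0.0323 without WT CCl4 2 and 0.0484 without KO CCl4 5. Among the rest the adjusted p reached 0.153. In KO livers the call was lost without the libraries that express Y-linked genes, at 0.85 with adjusted p = 0.0737, and with the highest probe set (0.0874). With the median of probe sets the WT change passed (0.0455). Over the main fit and the alternatives other than single libraries left out, the WT change passed in 3 of 11. It ran there from 0.27 to 0.96, with adjusted p from 0.0121 to 0.486.

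Ccl3 (MIP-1 alpha) is a ligand of Ccr1 made mainly by activated macrophages. In oil livers it lay between 2.95 and 3.82 (median 3.38) in WT and between 2.95 and 5.45 (median 3.33) in KO, and after CCl4 between 3.72 and 5.51 (median 5.33) in WT and between 5.11 and 6.33 (median 5.66) in KO. All but a single WT CCl4 library, the one labelled WT CCl4 1, were above the whole WT oil range, and only KO oil 10 reached the KO CCl4 range. The rise was 1.65 ± 0.26 in WT (adjusted p = 2.94e-05, 3.14-fold) and 2.15 ± 0.24 in KO (adjusted p = 1.25e-07, 4.44-fold). Without the libraries that go against their label the groups no longer overlapped in either genotype.

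Ccl4 (MIP-1 beta), a chemokine encoded next to Ccl3 on chromosome 11, changed least of the CC members. Its median was 4.25 in WT oil, 4.17 in KO oil, 4.46 in WT CCl4 and 4.71 in KO CCl4, and the full range over all 36 libraries ran only from 3.71 to 5.15. Of the 9 KO CCl4 libraries, 5 exceeded every KO oil library, and 7 of the 10 KO oil libraries reached the lowest KO CCl4 library. Ccl4 rose by 0.45 ± 0.14 in KO livers (adjusted p = 0.0157), and the WT change of 0.18 ± 0.15 did not pass (adjusted p = 0.371). The KO call was lost in other fits, with adjusted p = 0.1 in the fit without 10 libraries 0.0509 with arrays centred on their medians, 0.18 with the median and 0.177 with the highest probe set, and 0.0625 without the libraries that express Y-linked genes.

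Ccl5 (RANTES) binds Ccr1 and Ccr3 and is abundant in T and NK cells. It lay between 4.75 and 5.72 (median 5.40) in WT oil, between 4.92 and 5.88 (median 5.53) in KO oil, between 5.46 and 8.43 (median 6.48) in WT CCl4 and between 5.88 and 7.39 (median 6.38) in KO CCl4 livers. The widest group was WT CCl4, where replicates 3 and 4 read 8.43 and 7.42 and replicates 1 and 2 lay within the oil range. Ccl5 rose by 1.22 ± 0.25 in WT (adjusted p = 6.73e-04) and by 1.01 ± 0.24 in KO (adjusted p = 0.00175). With the 7 libraries that hold other-tissue markers left out, WT CCl4 3 and 4 among them, the WT change was 0.58 with adjusted p = 0.0556. The KO call was lost with the median of probe sets (0.68, adjusted p = 0.0841). Of 14 measured T and NK cell markers, 2 rose and 1 fell in WT livers and 0 were called in KO livers, and their mean signal was 3.63 to 3.84 in WT oil and 3.48 to 4.53 in WT CCl4, with the highest value in WT CCl4 3. The part of these cells in the Ccl5 signal was not tested.

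Ccl6 is a rodent chemokine of macrophages and neutrophils that signals through Ccr1. Its range was 4.34 to 5.56 (median 5.14) in WT oil and 6.41 to 8.85 (median 6.92) in WT CCl4, with no overlap, and 4.55 to 8.56 (median 5.06) in KO oil and 7.00 to 9.14 (median 7.69) in KO CCl4. The KO groups overlap through KO oil 10 (8.56) alone, since the next highest KO oil library read 5.47. Ccl6 rose by 2.07 ± 0.37 in WT (adjusted p = 1.48e-04, 4.19-fold) and by 2.40 ± 0.35 in KO (adjusted p = 4.65e-06, 5.27-fold), the largest changes of the 9 genes with all libraries and with the mean of probe sets. Ccl9, its neighbour on chromosome 11, did not pass in either genotype, with medians of 9.43 in WT oil and 9.64 in WT CCl4.

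Cxcl10 (IP-10) attracts T and NK cells through Cxcr3 and is induced by interferons. It was the only member whose mean lay lower after CCl4 in WT livers, a change whose sign turned with the median of probe sets (0.01), with the highest probe set (0.04), without the other-tissue libraries (0.07) and without WT oil 3 (0.01). The WT oil libraries ran from 4.29 to 5.20 (median 4.48) and the WT CCl4 libraries from 4.09 to 4.83 (median 4.56), with a change of -0.08 ± 0.15 (adjusted p = 0.73). In KO livers the range was 3.84 to 4.81 (median 4.26) after oil and 4.13 to 5.42 (median 4.87) after CCl4, where 5 of 9 libraries exceeded every oil library. Cxcl10 rose there by 0.54 ± 0.14 (adjusted p = 0.00364, 1.45-fold). Of the other Cxcr3 ligands, Cxcl11 fell by 0.50 in KO livers (adjusted p = 0.0395), and Cxcl9 passed in neither genotype, at -0.53 in WT (adjusted p = 0.194) and 0.01 in KO (adjusted p = 0.991).

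The upstream sequences of Cxcl10 and Ccl3 are printed because Ccl3 rose in both genotypes and Cxcl10 passed in KO livers alone. They are the 250 bases before the annotated start from RefSeq on GRCm38.p6, read 5′ to 3′ on the gene's strand, at chr5:92348890-92349139 (minus strand) for Cxcl10 and chr11:83649379-83649628 (minus strand) for Ccl3. Capitals mark matches, on either strand, to the interferon-stimulated response element (GAAA, any 2 bases, GAAA), the kappaB motif and the AP-1 motif (TGANTCA).
Cxcl10: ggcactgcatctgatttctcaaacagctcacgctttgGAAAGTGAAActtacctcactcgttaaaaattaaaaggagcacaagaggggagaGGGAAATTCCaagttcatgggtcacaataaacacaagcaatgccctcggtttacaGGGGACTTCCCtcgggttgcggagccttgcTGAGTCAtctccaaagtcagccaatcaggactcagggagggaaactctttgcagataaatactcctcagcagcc
Ccl3: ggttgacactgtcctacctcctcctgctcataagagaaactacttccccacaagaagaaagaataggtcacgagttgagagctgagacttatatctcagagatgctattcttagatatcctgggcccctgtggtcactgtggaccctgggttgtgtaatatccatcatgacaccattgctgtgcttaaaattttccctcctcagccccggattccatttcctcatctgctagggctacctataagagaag
The Cxcl10 window holds an ISRE match from -213 to -204, kappaB matches from -159 to -150 and from -104 to -94 in 2 overlapping registers, and an AP-1 match from -74 to -68, while no match was found in the Ccl3 window. Over all 32851 promoters of the table, windows of this length held the ISRE in 2.98%, the kappaB motif in 7.25% and AP-1 in 6.75%. Of the 9 genes, 6 matched an entry; Ccl2, Ccl4 and Ccl5 did not. The windows of Ccl6, Ccr2, Cx3cr1 and Cxcr4 held no match either. A match of letters is a description and says nothing on binding in these livers. Nor does it bear on a difference between genotypes, since the CCl4 change of Cxcl10 was not called different between KO and WT.

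All 3 receptors rose in both genotypes. Ccr2 lets classical monocytes leave the marrow and follow Ccl2. It lay between 2.73 and 3.30 (median 3.01) in WT oil and between 3.35 and 4.82 (median 4.35) in WT CCl4, with no overlap. In KO livers the range was 2.78 to 5.00 (median 2.96) after oil and 4.57 to 5.34 (median 4.84) after CCl4, overlapping only through KO oil 10, since the next oil library read 3.27. Ccr2 rose by 1.33 ± 0.21 in WT (adjusted p = 2.81e-05, 2.51-fold) and by 1.76 ± 0.20 in KO (adjusted p = 9.55e-08, 3.39-fold), where its rank by p among all genes was 23.

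Cx3cr1 is the receptor of fractalkine (Cx3cl1) and is carried by patrolling monocytes and many tissue macrophages. Its range was 4.24 to 4.56 (median 4.40) in WT oil, 4.85 to 5.87 (median 5.45) in WT CCl4, 4.19 to 6.05 (median 4.52) in KO oil and 5.24 to 6.74 (median 5.99) in KO CCl4. WT oil and WT CCl4 did not overlap, and KO oil 10 alone reached the KO CCl4 range. Cx3cr1 rose by 1.09 ± 0.20 in WT (adjusted p = 1.54e-04) and by 1.37 ± 0.19 in KO (adjusted p = 1.56e-06). With the highest of its 3 probe sets alone, neither change passed (0.39 and 0.55, adjusted p = 0.235 and 0.0675). Cx3cl1 rose as well, by 0.39 in WT (adjusted p = 0.0169) and 0.42 in KO (adjusted p = 0.00571).

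Cxcr4 holds leukocytes in the marrow and guides them toward Cxcl12. It lay between 3.76 and 4.52 (median 4.17) in WT oil, between 4.64 and 7.32 (median 5.48) in WT CCl4, between 4.13 and 6.38 (median 4.25) in KO oil and between 5.09 and 7.76 (median 5.78) in KO CCl4. Both CCl4 groups had a long upper tail, headed by WT CCl4 3 and KO CCl4 5, and the overlap in KO livers again came from KO oil 10. Cxcr4 rose by 1.55 ± 0.31 in WT (adjusted p = 5.32e-04) and by 1.49 ± 0.30 in KO (adjusted p = 2.90e-04). Its ligand Cxcl12 fell by 0.48 in WT livers (adjusted p = 0.003) and changed by -0.25 in KO livers (adjusted p = 0.102).

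**Figure D2:**
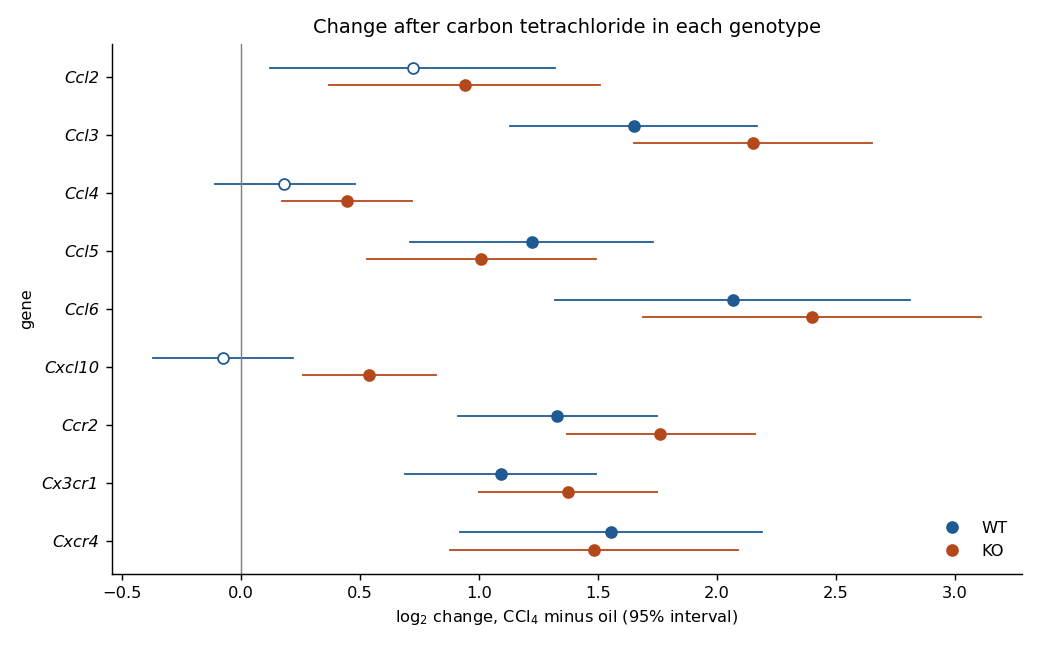
Log2 change after CCl4 against oil (horizontal axis) for each gene (vertical axis) in WT (blue) and KO (orange) livers, with 95% intervals. Filled points passed an adjusted p of 0.05; the open points are Ccl2, Ccl4 and Cxcl10 in WT livers.

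Without the libraries labelled KO oil 10 and WT CCl4 1, the KO change was larger for every member except Ccl4 (0.45 to 0.43), and the WT change lay farther above 0 for every member except Cxcl10 (-0.08 to -0.11). The change of Ccr2 became 1.45 ± 0.11 in WT and 1.97 ± 0.10 in KO, and that of Ccl6 2.16 ± 0.25 and 2.75 ± 0.24. With all libraries, every CCl4 library lay above every oil library for 4 members in WT (2.79% of all genes) and for 0 in KO (0.203%). Without those 2 libraries this held for 5 members (Ccl3, Ccl6, Ccr2, Cx3cr1 and Cxcr4) in WT (5.42% of all genes) and for the same 5 in KO (5% of all genes). In the fit without 10 libraries, 6 members rose in WT and 8 in KO, Ccl4 being the exception. The WT changes there were 0.56 for Ccl2, 1.81 for Ccl3, 0.34 for Ccl4, 1.01 for Ccl5, 1.75 for Ccl6, -0.04 for Cxcl10, 1.39 for Ccr2, 1.22 for Cx3cr1 and 1.48 for Cxcr4. The KO changes were 0.97, 2.21, 0.36, 1.04, 2.47, 0.62, 1.97, 1.52 and 1.41 in the same order. The same few libraries held the extremes of several genes. KO oil 10 was the highest of its group for 6 members, KO CCl4 5 for 5 and WT CCl4 3 for 4, while WT CCl4 1 was the lowest for 5 and KO CCl4 9 the lowest of its group for all 9.

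The probe sets of a gene mostly shared a direction and differed in the size of the change. Ccr2 has 8 probe sets, whose changes ran from 0.12 to 2.94 in WT and from -0.02 to 3.11 in KO livers. The 5 probe sets of Ccl3 ran from 0.08 to 2.86 in WT, and those of Ccl6 from 0.29 to 3.01. Each of these genes holds a probe set that hardly moved beside others that moved far. For Cxcl10, 2 of 6 probe sets lay above 0 in WT livers and 6 of 6 in KO livers. The 3 probe sets of Cxcr4 agreed closely, between 1.21 and 1.80 in WT and between 1.20 and 1.66 in KO.

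**Figure D3:**
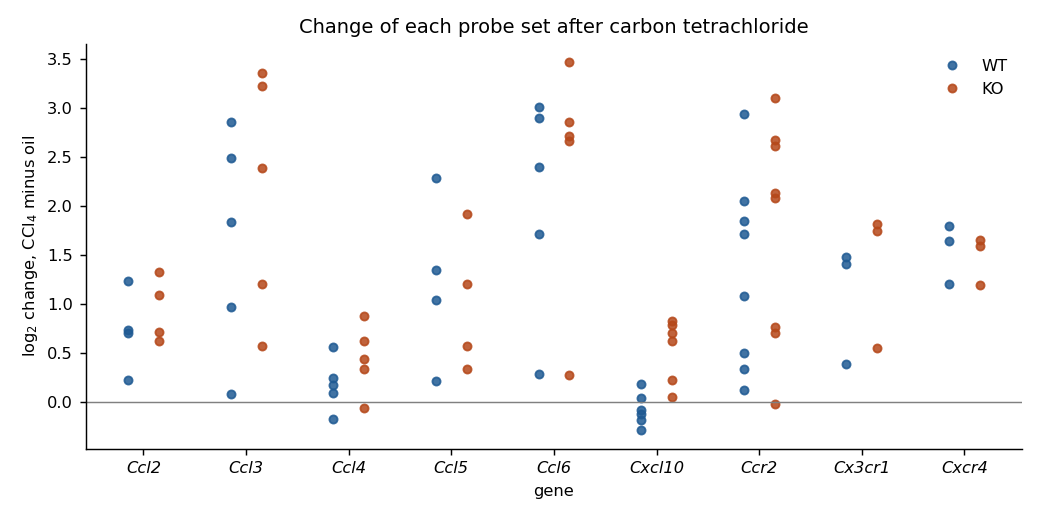
Log2 change of every probe set after CCl4 against oil (vertical axis), by gene (horizontal axis), in WT (blue) and KO (orange) livers. Every Cxcl10 probe set of KO livers is above 0, between 0.05 and 0.83, while those of WT livers lie between -0.29 and 0.18.

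Between genotypes, no member was called. After oil, 0 of 9 passed in limma (0.0346% of all genes were called, 8 genes), every adjusted p was 1, and 0 of 9 had an unadjusted p under 0.05, where 877 of all genes had one. The differences of KO from WT ran from -0.28 ± 0.14 for Cxcl10 (95% interval -0.56 to 0.01) to 0.31 ± 0.31 for Cxcr4 (interval -0.31 to 0.93). Without KO oil 10 the differences of Ccl2, Ccl3, Ccl6 and Ccr2 turned from above to just below 0, between -0.07 and -0.03, so their sign rested on that library. The difference of Cxcr4 became 0.10 without it, and that of Cx3cr1 0.14.

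After CCl4, 0 of 9 members passed as well (0.0518% of all genes, 12 genes), and 4 had an unadjusted p under 0.05 (Ccl3, Cxcl10, Ccr2 and Cx3cr1), where 1951 of the 23152 genes had one. Leaving out single libraries moved the 12 genes called to between 3 and 100. The number was 100 without KO oil 10, 86 without KO CCl4 9, 32 without KO CCl4 8 and 30 without WT CCl4 3. It was 3 to 7 when WT CCl4 6, 7, 8 or 9 or KO CCl4 1, 3, 4, 6 or 7 was left out. The KO mean was above the WT mean for 8 of 9. The median difference was 0.37 (0.25 without the 10 libraries), and that over all genes 0.001. Monocyte and macrophage markers lay above 0 in the same comparison for 21 of 21 (median 0.68) and neutrophil markers for 12 of 12 (median 0.59), and their part in the difference was not tested. Without the 10 libraries the medians of these marker lists were 0.57 and 0.50. The shift was not limited to these cell types. Interferon-stimulated genes were above 0 for 20 of 20 (median 0.31) and myeloid cytokines for 16 of 16 (0.16). Receptor signalling genes were for 22 of 24 (0.29) and NF-kappaB targets for 13 of 15 (0.12). T and NK cell markers were for 7 of 14 (0.01) and B and plasma cell markers for 3 of 10 (-0.08). Ccl3 differed by 0.68 ± 0.25 (interval 0.17 to 1.19, adjusted p = 0.378), Cx3cr1 by 0.58 ± 0.19 (interval 0.19 to 0.96, adjusted p = 0.297) and Ccr2 by 0.60 ± 0.20 (interval 0.20 to 1.01, adjusted p = 0.3). All 9 KO libraries lay above the WT mean for Ccr2, and 5 lay above every WT library. Ccl6 differed by 0.62 ± 0.36 (interval -0.11 to 1.34), Cxcl10 by 0.34 ± 0.14 (interval 0.05 to 0.63) and Ccl5 by -0.08 ± 0.24 (interval -0.57 to 0.42), with adjusted p of 0.678, 0.473 and 0.974. In the fit without 10 libraries, Ccl3 differed by 0.45 (adjusted p = 0.421), Ccl6 by 0.58 (adjusted p = 0.129), Ccr2 by 0.49 and Ccl5 by 0.004.

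The Ccr2 result depended on which libraries were left out, both outside and inside the pair of groups compared. Its adjusted p was 0.0268 without KO oil 10, which leaves the difference at 0.60 but lowers its standard error to 0.132, and 0.0487 without both libraries that go against their labels, where the difference was 0.48. Without the 7 libraries with markers of other tissues, 5 of them WT CCl4, it was 0.92 (adjusted p = 0.00371). That fit kept only WT CCl4 1, 2, 6 and 7 in the WT group, with Ccr2 at 3.35, 4.13, 4.28 and 4.19. The lowest of these, WT CCl4 1, is a library that goes against its label. In a fit of the 18 CCl4 libraries alone, added after seeing the data, the adjusted p was 0.315, and in the fit without 10 libraries it was 0.0638. With array quality weights both Ccr2 (adjusted p = 0.028) and Cx3cr1 (adjusted p = 0.0347) passed.

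**Figure D4:**
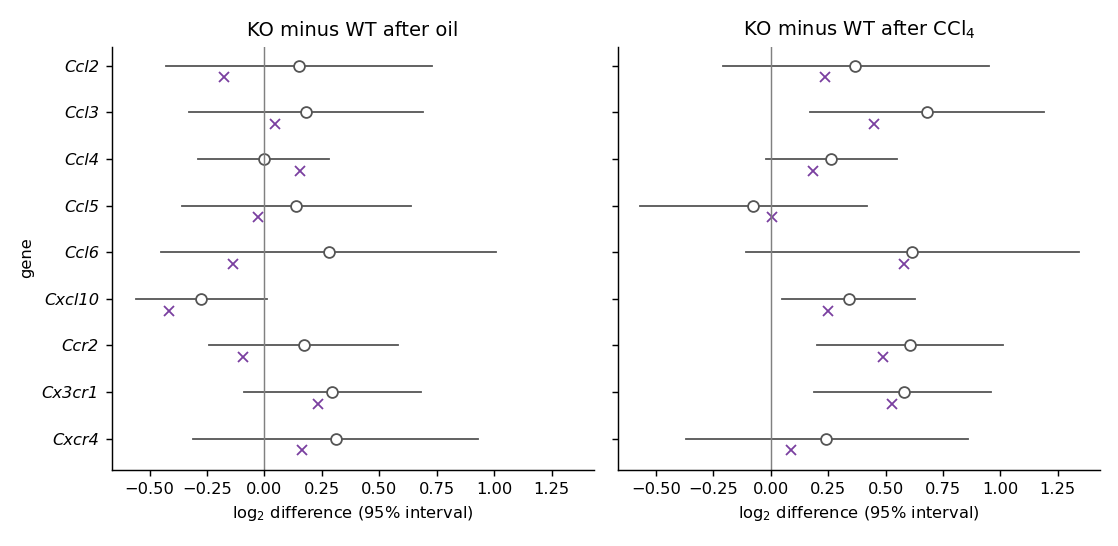
Log2 difference of KO from WT (horizontal axis) for each gene (vertical axis) after oil (left) and after CCl4 (right), with 95% intervals around open circles, since none passed an adjusted p of 0.05. Crosses give the difference without 10 libraries that go against their label, express Y-linked genes or are low in periportal genes; after CCl4 the circles of 8 genes lie above 0, and that of Ccl5 at -0.08.

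The interaction, which is the CCl4 change in KO minus that in WT, was called for 0 of 9 members and 0 genes of 23152 (0% called; 1356 at an unadjusted p under 0.05). Cxcl10 alone had an unadjusted p under 0.05. Its change differed most, by 0.61 ± 0.20 (interval 0.21 to 1.02, unadjusted p = 0.00411, adjusted p = 0.848). For Ccl3 the difference was 0.50 ± 0.36 and for Ccr2 0.44 ± 0.28, and for Ccl5 and Cxcr4 it was -0.21 ± 0.35 and -0.07 ± 0.43. So the call of Cxcl10, Ccl2 and Ccl4 in KO but not in WT livers does not show that the genotypes responded differently.

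Markers of monocytes and macrophages were mostly higher after CCl4 as well. Of 21 such markers, 18 rose in WT and 21 in KO livers after CCl4, and the mean of the list lay between 4.97 and 5.35 in WT oil, between 5.73 and 7.17 in WT CCl4, between 5.07 and 7.28 in KO oil and between 6.34 and 8.12 in KO CCl4. Among the extremes were libraries that also held those of several of the 9 genes: KO oil 10 (7.28), WT CCl4 1 (5.73) and KO CCl4 5 (8.12). Itgam (CD11b) rose by 2.58 in WT and 3.03 in KO livers (adjusted p = 1.41e-04 and 3.77e-06). Between genotypes after CCl4, 2 of the 21 were higher in KO: Itgax (CD11c), by 1.45 ± 0.29 (adjusted p = 0.0415), and Fcer1g, an Fc receptor chain, by 1.12 ± 0.21 (adjusted p = 0.0248). Without the 10 libraries, 19 and 21 markers rose and 3 were higher in KO. The median change of the list was 1.25 in WT and 1.76 in KO livers. An array sets no true zero, so none of these markers could be read as absent. The part of monocyte numbers in the signals of the 9 genes was not tested.

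Kupffer cell markers split, with Marco, a scavenger receptor, up by 2.31 in WT and Clec4f, the most specific of them, down by 1.03 (adjusted p = 0.0428), and 4 of 10 rose in KO livers (median change of the list -0.04 in WT and 0.13 in KO). Neutrophil markers rose for 6 of 12 in WT and 10 of 12 in KO livers, among them Csf3r, the G-CSF receptor, by 1.01 and 1.40 (medians 0.50 and 0.84). Of 10 dendritic cell markers, 3 rose in WT and 2 in KO, and of 10 B and plasma cell markers, 4 and 2, led by Jchain at 2.07 and 1.92. The mean of the B and plasma cell list was far above the rest in a few libraries with markers of other tissues. These were WT CCl4 3 (6.83) and 4 (5.89), where the group median was 4.57, and KO CCl4 5 (6.32), where it was 4.65. Markers of stellate cells and myofibroblasts rose for 12 of 14 in WT and 11 of 14 in KO livers, led by Col1a1 at 3.20 and 3.53, and 6 of 15 periportal hepatocyte genes fell in each genotype.

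The rest of the chemokine system was measured beside these genes. Of 12 other CC chemokines, 0 rose in limma (medians 0.07 in WT and 0.06 in KO); Ccl1 fell by 0.27 in WT (adjusted p = 0.0226) and Ccl24, an eosinophil attractant, fell by 0.43 in KO livers (adjusted p = 0.0236). Of 16 other CXC, CX3C and XC chemokines, 5 rose and 1 fell in each genotype (medians 0.12 and 0.11). Cxcl14 rose by 1.43 in WT and 1.98 in KO livers, and Cxcl16, a membrane-bound ligand of Cxcr6, by 0.81 and 1.23. Cxcl13, which draws B cells, rose by 1.50 in KO livers. Among 19 other receptors, 5 rose in WT and 6 in KO (medians 0.17 and 0.07). These include Ccr1, which binds Ccl3, Ccl5 and Ccl6 (0.92 in WT and 0.81 in KO), the neutrophil receptor Cxcr2 (0.78 and 0.81) and Ccr7, the receptor that takes dendritic cells to lymph nodes (1.43 and 0.65). None of these lists had a gene called between genotypes.

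Genes that carry the receptor signal inside leukocytes were mostly higher after CCl4: 17 of 24 rose in WT and 20 of 24 in KO livers (medians 0.55 and 0.72), and without the 10 libraries 16 and 20. Elmo1 and Dock2, partners that activate Rac during migration, rose by 1.61 and 1.31 in WT and by 1.62 and 1.56 in KO livers. The PI3-kinase subunit Pik3r5 rose by 1.24 and 1.46, and Rac2, the leukocyte Rac, by 1.39 in KO livers. Of 15 NF-kappaB targets, 8 rose and 1 fell in WT, and 9 rose and 2 fell in KO (medians 0.37 and 0.43); Vcam1, the endothelial adhesion molecule, rose by 1.42 and 1.27. Of 20 interferon-stimulated genes, 4 rose and 2 fell in WT and 8 rose in KO (medians 0.00 and 0.29). Oasl2 rose by 0.85 and 1.21, and Mx2 fell by 0.61 in WT livers. Of 16 cytokines and growth factors of myeloid cells, 3 rose and 2 fell in WT and 6 rose in KO (medians -0.06 and 0.19), with Csf2ra, the GM-CSF receptor, up by 1.06 and 1.20 and Il1b up by 0.99 in KO livers (adjusted p = 0.0084).

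Without the 10 libraries some of these counts moved. Of the Kupffer markers, 3 rose and 1 fell in WT and 5 rose and 1 fell in KO livers (medians -0.20 and 0.30), and of the periportal genes 8 fell and 1 rose in WT and 10 fell in KO. Neutrophil markers rose for 5 and 9, dendritic cell markers for 3 and 2, B and plasma cell markers for 3 and 3, and stellate cell markers for 12 and 11. Of the interferon-stimulated genes, 3 rose and 3 fell in WT and 10 rose in KO, and of the NF-kappaB targets 6 rose in WT and 9 rose and 2 fell in KO. The myeloid cytokine list gave 3 up and 3 down in WT and 8 up and 1 down in KO. Among the other CC chemokines 0 rose and 1 fell in each genotype, among the CXC, CX3C and XC chemokines 5 rose and 2 fell in WT and 6 rose and 1 fell in KO, and among the receptors 5 rose and 1 fell in WT and 6 rose in KO.

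Across the 36 arrays, likeness to each member was measured by Pearson r with every other gene. The genes most like Ccl6 were Inpp5d (r = 0.973), Itgam (0.972) and Itgb2 (0.971), and after the group means were taken off these r were 0.927, 0.912 and 0.921. Ccr2 was most like Arhgap25 (0.974), App (0.972) and Csrp1 (0.970), and Cxcr4 most like Itga4 (0.970), Dock2 (0.964) and Slc38a1 (0.961). Ccl3 was most like Tlr13, Lilrb4a and Hpgds (0.953 to 0.961), Cx3cr1 most like Cd72, Itgax and Havcr2 (0.947 to 0.952), and Ccl5 most like Ccr7, Stat4 and Kif21b (0.883 to 0.914). Ccl2 stood with other genes, Akr1b8 (0.906), Chpf (0.902) and Pea15a (0.893). Ccl4 and Cxcl10 had no close companion, the highest r being 0.669 with Palb2 and 0.647 with Klf8. These values describe arrays that share treatment and the libraries that stand apart.

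Within the 18 CCl4 livers, after each genotype's mean was taken off, the 9 genes did not form a single block. Of 36 pairs, 31 had an r above 0, and 13 had an adjusted p of r under 0.05 in a permutation test of 100000 resamples. Only 2 pairs also passed by Spearman's rho. Ccl6 and Cxcr4 gave r = 0.93 and rho = 0.76 (two-sided permutation test, adjusted p = 3.60e-04, from the smallest p that 100000 resamples can give, and 0.0162), with r of 0.90 in WT, 0.96 in KO and 0.80 without the 2 libraries farthest from the Ccl6 median. Ccl3 and its neighbour Ccl4 gave r = 0.60 and rho = 0.71 (permutation test, adjusted p = 0.0335 and 0.0254), with r of 0.40 in WT and 0.85 in KO and 0.68 without the 2 libraries farthest from the Ccl3 median. Without the 3 CCl4 libraries that go against their label or are low in periportal genes, r was 0.76 for Ccl6 and Cxcr4 and 0.85 for Ccl3 and Ccl4. Of the 13 pairs, 7 had an r lower by 0.2 or more in those 15 libraries, 5 stayed within 0.2 and 1 (Ccl3 and Ccl4) was higher. Ccl3 with Ccr2 went from 0.71 to 0.36, Ccl5 with Ccl6 from 0.69 to 0.28, Ccl5 with Cxcr4 from 0.64 to 0.27 and Ccl2 with Ccl5 from 0.57 to 0.26. In the same libraries the r of Ccl2 fell from 0.62 to 0.11 with Ccl6 and from 0.52 to -0.20 with Cxcr4.

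**Figure D5:**
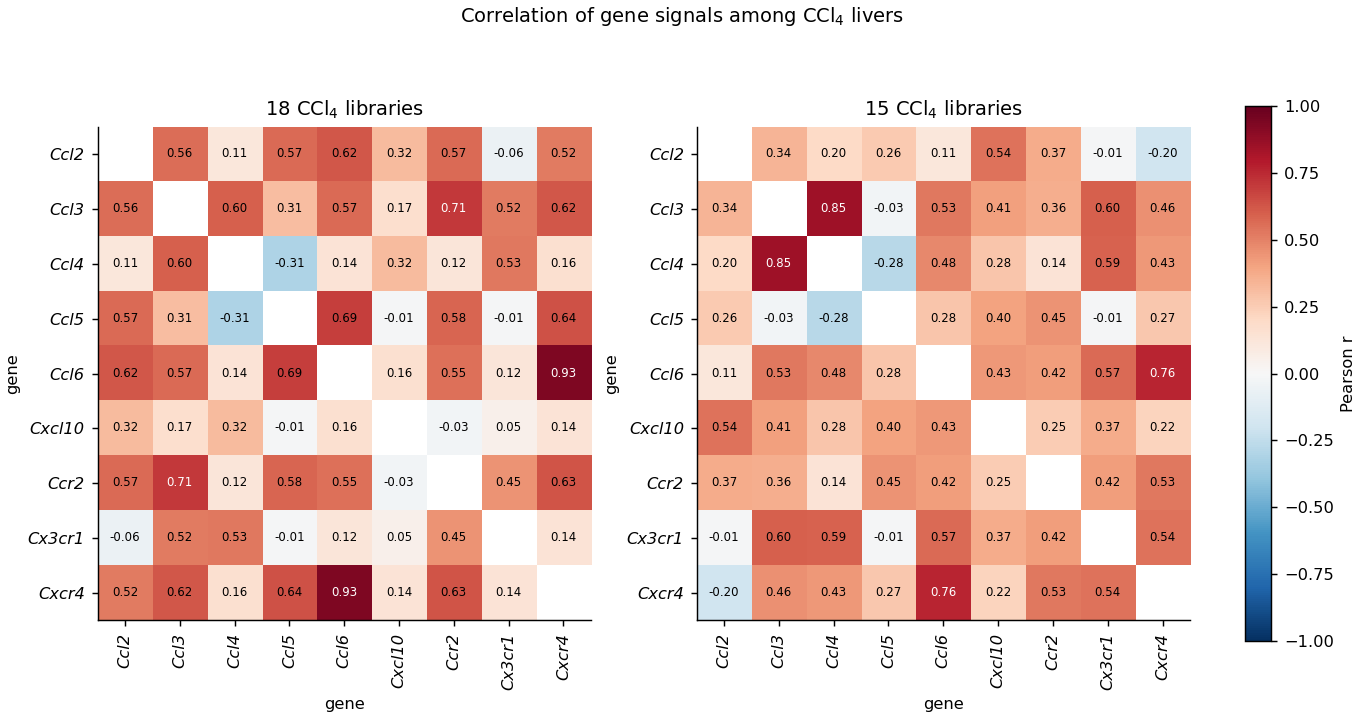
Pearson r of each pair of genes (both axes) among CCl4 libraries after the genotype means were taken off, over 18 libraries (left) and over 15, without the libraries that go against their label or are low in periportal genes (right). Red is above 0 and blue below; Ccl6 with Cxcr4 is the darkest cell on the left (0.93), and Ccl3 with Ccl4 on the right (0.85).

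In the reference annotation, Ccl5, Ccl9, Ccl6, Ccl3 and Ccl4 are consecutive protein-coding genes on chromosome 11; Ccl3, Ccl5 and Ccl6 rose in both genotypes, Ccl4 in KO livers only by the test within that genotype, and Ccl9 in neither. Ccl2 lies next to Ccl7, Ccl11 and Ccl12 on the same chromosome, and Ccl7 changed by 0.25 in WT and 0.28 in KO livers (adjusted p = 0.119 and 0.0697). On chromosome 9, Cx3cr1 lies beside Ccr8.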

How the data were processed

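Liver RNA of 36 libraries in 4 groups (taken from the titles) was measured on arrays. The authors deposited a log2 signal per probe set, computed with RMA per the submitters' processing notes, with version, probe set definition and build not given in the sources used here. Another deposited table, with 36 columns whose names match no sample, was not used. Of 269479 probe sets, 233753 name 1 gene symbol, 5139 several and 30587 none; only the first were kept. Symbols were updated for 2189 genes from a table on GRCm38.p6, and averaging within genes gave 23152 genes (median 8 probe sets). No filter on low values was used. Array medians over genes lay between 4.11 and 4.38. No arrays were identical (0 pairs), and the highest correlation of a pair was 0.9888. The number of arrays limits the precision. No batch, such as a scan day, is given in the sources used here.

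Group means over the 36 arrays were fitted together with limma 3.58.1 in R 4.3.3 (lmFit, eBayes, two-sided, Benjamini-Hochberg over all genes per contrast, threshold 0.05) and tested on simulated data. Nothing in the labels says how the libraries of a group relate beyond separate numbers, so p-values measure the spread between these libraries. Correlations and figures used pandas 2.3.3, scipy 1.17.1 and numpy 2.4.6 under Python 3.11.15. Libraries were doubted for a Dpt signal on the wrong side of 5 (log2), a Y-linked mean over 4.5, a periportal mean under 7, or markers of other tissues 1 above the median of all arrays.

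Replicate numbers are shared between groups. Of 48 same-numbered pairs, 16 had a correlation of deviations over 0.1 (range -0.454 to 0.679, median 0.027). These were 6 of 8 between the genotypes after oil, 5 of 8 between them after CCl4 and 5 of 32 across treatments. The oil pairs not over 0.1 were numbers 2 (-0.009) and 4 (-0.454), where 1 library of the pair expressed Y-linked genes. In the 6 oil pairs over 0.1 (0.133 to 0.679) both libraries or neither expressed them. The part of this in the correlations was not tested. Since not every pair passed, and no label says what a number marks, the numbers were not taken to pair the samples.

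The genes, lists and tests were chosen with earlier results of these data known. Named genes are the 9 members, up to 4 called genes of each pathway list by size (2 by adjusted p where none was called), up to 2 markers per cell type, and the 3 genes most like each member by r; ligands, receptors and neighbours of members were named beside these after their values were seen. Alternatives were the summary of probe sets, array centring, a level filter, eBayes options, array weights, the replicate block, leaving out sets of libraries and leaving out each library.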

Additional observations from a re-analysis of the deposited data

Results flagged for a closer look

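In 36 sets of a member in a group, 9 had a library whose gap to its nearest neighbour, over the range of the group, passed Dixon's 95% critical value (0.526 for 8, 0.493 for 9 and 0.466 for 10 libraries). Chance flags about 1 in 20 groups, and the sets share libraries, so the flags are not independent. The library labelled KO oil 10, which also reads Dpt at 7.40 against its label, stood highest for 6 genes. There Ccl2 read 5.00 (next highest 3.49), Ccl3 5.45 (4.27), Ccl6 8.56 (5.47), Ccr2 5.00 (3.27), Cx3cr1 6.05 (5.02) and Cxcr4 6.38 (4.64). The library labelled WT CCl4 1, with Dpt at 3.18, stood lowest of its group for Ccr2, at 3.35 with 4.13 next. WT CCl4 3, low in periportal genes and with markers of other tissues, stood highest for Ccl6, at 8.85 with 7.58 next. WT oil 2, which expresses Y-linked genes, stood lowest for Ccl6, at 4.34 with 5.02 next.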

How the results depend on the processing

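Members called in WT livers ranged from 5 to 7 over the alternatives and in KO livers from 6 to 9, and 0 members were called after oil or in the interaction. Between genotypes after CCl4, 0 members were called in most fits, 1 with the replicate block, 1 without the 2 libraries whose Dpt goes against their label, 1 without the libraries with markers of other tissues, 2 with array quality weights, and 0 to 1 when a library was left out. The replicate block, whose numbers were not taken to pair the samples (11 of 16 same-numbered pairs within a treatment correlated over 0.1), brought Ccr2 (adjusted p = 0.0332) and, in WT after CCl4, Ccl2 (0.0401) past the threshold and raised the genes called between genotypes after CCl4 from 12 to 133. That number was 268 with array weights, 37 without the 2 libraries, 103 without the other-tissue libraries, 36 without 10 libraries, 21 with centred arrays, 18 among genes above the median level, 7 with the median and 7 with the highest probe set, 6 without Y-expressing libraries and 3 in the CCl4 libraries alone. In WT the genes called fell from 5666 to 3403 without Y-expressing and 3391 without other-tissue libraries. In KO they fell from 5389 to 3785 without Y-expressing libraries, with 7 of 9 members called, and rose to 6894 without other-tissue libraries. After oil the 8 genes became 5 with the median, the highest probe set or the level filter, 12 without other-tissue and 1 without Y-expressing libraries, and the interaction's 0 became 1 without the 2 or the 10 libraries. With single libraries left out, the genes called after oil ran from 5 (without WT oil 2, 4 or 8) to 9. The level filter left out Ccl2 and Ccr2, so it gave no value for them.

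Values of single members near 0 changed sign. Cxcl10 in WT after CCl4 became 0.012 with the median, 0.04 with the highest probe set and 0.074 without other-tissue libraries (-0.117 to 0.014 over single libraries left out). KO against WT after oil, Ccl2 was -0.038, Ccl3 -0.018, Ccl4 0.031, Ccl6 -0.028 and Ccr2 -0.041 with the replicate block. Without the 2 libraries, and also without other-tissue libraries, these were -0.043, -0.026, 0.015, -0.071 and -0.034. Both settings took only KO oil 10 out of the oil groups, so they are the same alternative for this comparison. Without 10 libraries, Ccl2 was -0.176, Ccl4 0.155, Ccl5 -0.028, Ccl6 -0.138 and Ccr2 -0.094. Without Y-expressing libraries Ccl4 was 0.124 and Ccl5 -0.002, while Ccl3 was -0.019 with weights and Ccl4 0.085 with the highest probe set. Over single libraries left out, Ccl2 ran from -0.043 to 0.196, Ccl3 from -0.026 to 0.252, Ccl4 from -0.064 to 0.051, Ccl6 from -0.071 to 0.375 and Ccr2 from -0.034 to 0.214. KO against WT after CCl4, Ccl5 became 0.021 with the highest probe set, 0.121 with weights, 0.51 without other-tissue and 0.004 without 10 libraries (-0.214 to 0.157 over single libraries). In the interaction, Ccl2 became -0.018 with the highest probe set, Ccl5 0.382 without other-tissue and 0.032 without 10 libraries (-0.353 to 0.018 over single libraries), and Cxcr4 0.151 with weights, 0.103 with the block, 0.002 without the 2 and 0.312 without other-tissue libraries (-0.291 to 0.14 over single libraries). The cause of these changes was not tested. With a library left out, 1591 values of members kept their direction and side of the threshold, 24 changed sign and 5 newly passed; in the other alternatives 437 kept both, 38 changed sign, 11 no longer passed and 8 newly passed. With 8 to 10 libraries a group, the arrays' number limits what differences between genotypes can be seen.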
